A study of Mus musculus with 18 samples.

Results

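The gene table of this study listed 34309 transcribed entries, and 8483 of them carried a position but no gene symbol. The loci described here are the 479 positions, of 6011 without a symbol, whose mean level over 12 libraries reached 1 FPKM. FPKM is the number of sequenced fragments scaled by transcript length and by the fragments mapped in the library, so it corrects a level for transcript length. The loci were thus chosen by their measured mean, which is no finding. Rows at the same position were summed: 231 loci rest on 1 row and 248 on several, up to 38. Of the 479, 365 averaged 1 FPKM or more in both genotypes, 46 in WT alone and 68 in tKO alone. Those 46 and 68 passed through the genotype in which they were high, so their genotype differences were in part fixed by the choice. The same holds for 8 members that reached a mean of 1 FPKM in 1 group only, and the levels of those named below are a description.

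The 12 libraries came from naive CD4+ T cells sorted from C57BL/6 mouse spleens and stimulated through CD3 and CD28 until day 4. The tKO genotype, Egln1fl/fl Egln2fl/fl Egln3fl/fl Cd4Cre, carries floxed alleles of the 3 oxygen-sensing prolyl hydroxylases PHD2, PHD1 and PHD3, and the WT control carries Cd4Cre, so both hold the recombinase. Each genotype received 0, 0.2 or 2 ng/ml of TGF-b, a cytokine that drives regulatory T cell differentiation, with 2 libraries in each of the 6 groups. The titles number them WT1, WT2, tKO1 and tKO2, called labelled series here. Cd4Cre acts during T cell development in the thymus, before the culture began. No label says whether a series is 1 mouse, a pool or a culture, so the p-values measure only the spread between these libraries. The animals' age is not given in the sources used here. A second experiment, with the hydroxylase inhibitor DMOG, was not analysed here because its table has no entry without a symbol.

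Prolyl hydroxylases use oxygen to mark the transcription factor HIF for destruction, and HIF drives glycolytic and hypoxia-response genes when it accumulates. Assembly of RNA-seq reads reports transcription wherever reads pile up, whether or not a gene is annotated there. Such loci can be antigen-receptor segments, pseudogenes, small structural RNAs, long noncoding RNAs or unannotated exons of a neighbouring gene. In lymphocytes the receptor loci are cut and rejoined, and a receptor transcript joins a variable segment to a constant region. The table held 0 symbols written as receptor segments, though 1 of its symbols, A430107P09Rik, is an older name of the alpha chain segment Trav3-3. Receptor transcripts are thus found almost wholly among the loci without a symbol.

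Sequences show what kind of transcript lies behind a locus, for the few loci where a reference name could be found. Positions are on mouse build mm9. A name was given where GENCODE vM21 (build GRCm38) lists, between the same flanking genes, a gene of exactly the same span. Tried on 19641 entries that do have a symbol, this found exactly 1 name for 4112, and 95.4% of those names were the entry's own. It gave exactly 1 name to 8 members, of which a pseudogene and a receptor segment are shown, 5′ to 3′ on the transcript's strand. The last sequence, Gm28437, belongs to a run of pseudogenes between the flanking genes of a further member, a match made after the values were seen.
Gm13738: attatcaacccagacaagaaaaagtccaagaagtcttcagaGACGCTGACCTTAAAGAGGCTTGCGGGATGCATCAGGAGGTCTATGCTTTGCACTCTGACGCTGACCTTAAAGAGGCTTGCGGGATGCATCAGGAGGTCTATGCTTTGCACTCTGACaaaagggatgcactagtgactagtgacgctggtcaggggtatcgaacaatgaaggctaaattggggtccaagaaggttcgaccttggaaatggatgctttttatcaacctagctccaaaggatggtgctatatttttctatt
Trav12n-3: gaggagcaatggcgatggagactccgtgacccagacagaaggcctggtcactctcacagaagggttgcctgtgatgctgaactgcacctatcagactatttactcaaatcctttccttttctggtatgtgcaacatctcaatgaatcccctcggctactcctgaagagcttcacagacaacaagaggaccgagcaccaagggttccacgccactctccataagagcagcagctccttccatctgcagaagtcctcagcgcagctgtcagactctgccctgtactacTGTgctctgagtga
Gm28437: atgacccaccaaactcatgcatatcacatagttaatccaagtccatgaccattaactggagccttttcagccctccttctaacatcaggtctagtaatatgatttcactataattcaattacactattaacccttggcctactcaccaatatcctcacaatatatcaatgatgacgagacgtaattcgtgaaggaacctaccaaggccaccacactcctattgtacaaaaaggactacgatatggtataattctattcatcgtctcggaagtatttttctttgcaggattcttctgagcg
Gm13738, at chr2:87366301-87366769, is a processed pseudogene of 469 bases, of which bases 1 to 300 are shown. Its capitals mark a stretch of 60 bases that occurs at bases 42 to 101 and again at 99 to 158. Trav12n-3, at chr14:53373025-53373524, is a variable segment of the T cell receptor alpha chain, and bases 54 to 353 of its spliced transcript are shown. The capitals mark the codon of its last cysteine, at bases 340 to 342. A stretch of 347 of its bases is identical in another gene name, so reads may not separate these copies and its value is uncertain. Of Gm28437, bases 1 to 300 of 783 are shown, in lower case throughout because 0 of them differ from the mitochondrial gene mt-Co3.

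The 479 loci were mostly faint, and noisier than named genes. Their median level was 2.75 FPKM, against 14.3 FPKM for the 10354 gene symbols with a mean of 1 or more, and 103 members reached 10 FPKM. Libraries of the same group differed by a median of 0.448 log2 units at members and 0.268 over all 10833 features tested. Among the classes by span, the 48 members under 200 bases differed most, by 0.668, and held 77.5% of all member FPKM. Division by a very short length makes FPKM large, and the depth behind a value is unknown because FPKM carries no counts. A 33-base locus, chr14:50682075-50682107, 21281 bases from the olfactory receptor gene Olfr726, averaged 25607 FPKM and alone took 0.656% to 7.23% of a library's FPKM. It spanned 17421 to 47866 FPKM in WT and 5617 to 44245 in tKO, so the genotypes overlapped widely (-0.34 ± 0.39, adjusted p = 0.58, limma). Other bright loci were scattered too, and the genotypes overlapped at each of these. The 49-base locus chr16:26454880-26454928 had 227 to 702 FPKM in WT and 283 to 1520 in tKO, and chr4:43811934-43812769, near the pseudogene Olfr29-ps1, ranged from 0 in tKO2 at 0.2 ng/ml to 1719 FPKM in WT2 at 2 ng/ml.

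**Figure D1:**
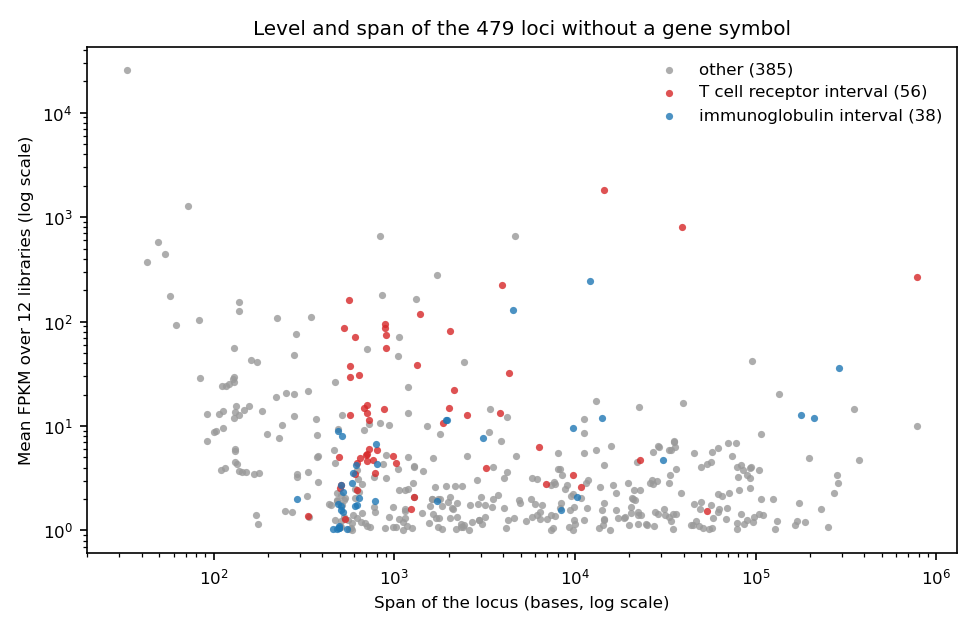
Each point is 1 of the 479 loci, with its span in bases on the x axis and its mean FPKM over 12 libraries on the y axis, both on log scales. Colours give the kind of interval, and the 33-base locus with a mean of 25607 FPKM stands alone at the upper left.

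By position, 74 members overlapped the span of a gene symbol, 123 lay within 5 kb of one, 143 between 5 and 50 kb and 139 farther away. No member overlapped another. Chromosome 6 held 63 members, chromosome 14 held 41 and chromosome 12 held 32, all chromosomes with receptor loci. In all, 56 members lay in intervals between named genes where GENCODE places T cell receptor segments, and 38 in immunoglobulin intervals. At the edge of the rule, the 3 members just inside averaged 1.001, 1.002 and 1.002 FPKM and the 3 positions just outside 0.998, 0.998 and 0.999. At 133 members at least 1 library was listed at 0, which in such a table can also be a failed estimate.

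Named genes served to check the labels. The 8 T cell markers measured summed to 3044 to 3614 FPKM in WT and 2417 to 3050 in tKO. Of 10 myeloid markers 5 were at 0 in all libraries, among them Lyz2, S100a8 and S100a9. Egln2 had 35.6 to 48.8 FPKM in WT and 19.9 to 39.0 in tKO, while Egln1 (20.4 to 44.3 against 92.8 to 122) and Egln3 (5.68 to 18.7 against 77.5 to 140) were higher in every tKO library than in any WT library. Whole-gene FPKM does not show the deleted exons, so these levels do not check the genotype. The Y-linked gene Eif2s3y had 43.6, 45.5 and 42.0 FPKM in the tKO1 libraries and 0 in the other 9, and Xist, the X inactivation RNA, had 0 to 0.0531 in tKO1 and 1.04 to 5.16 elsewhere. The labelled series of tKO thus differ in sex chromosome transcripts. FPKM summed to 548974 to 856147 per library, of which the members took 2.33% to 9.29%.

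Averaged over the TGF-b doses, 61 of the 479 members were higher and 73 lower in tKO at an adjusted p under 0.05 (limma, Benjamini-Hochberg over all 10833 features). Among all features 13.7% were called higher and 13.0% lower, so the members' shares are near the background. Of the rises 33 were at members that passed in tKO alone, and of the falls 22 at members that passed in WT alone. Among the 365 members that passed in both genotypes 28 rose and 51 fell. Differences are tKO minus WT on the log2(FPKM + 1) scale with standard errors, a scale that understates the change of low loci. Their median was -0.00034 over the members and -0.02 over all features. When 1 labelled series was left out, 77 members were called without WT1 and 57 without WT2, and 58 were called when all features below 1 FPKM were fitted too.

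The largest falls were a pair of loci with transcripts in WT and next to none in tKO. Both averaged 1 FPKM or more in WT alone, so their differences were in part fixed by the choice. The Gm13738 locus, whose sequence is shown above, lies 5422 bases from the olfactory receptor gene Olfr153. It had 31.7, 44.5 and 32.4 FPKM in WT1 at 0, 0.2 and 2 ng/ml and 75.8, 64.2 and 69.7 in WT2. In tKO 5 of 6 libraries were listed at 0 and tKO2 at 0.2 ng/ml had 0.272. The genotypes did not overlap (-5.61 ± 0.24, adjusted p = 9.9e-09), and WT2 lay above WT1 at each dose.
The 220-base locus chr17:70741930-70742149, 31982 bases from Dlgap1, which encodes a synaptic scaffold protein, had the same course. It had 15.6, 30.6 and 26.7 FPKM in WT1, 53.8, 47.0 and 50.8 in WT2 and 0 to 0.492 in tKO (-4.96 ± 0.29, adjusted p = 8.8e-08). Across the 12 libraries the pair, on different chromosomes, had a Pearson r of 0.993 on the log2 scale, given as a description. Next most alike to the Gm13738 locus was chr11:106832922-106834447, with r = 0.902. Neither Olfr153 nor Dlgap1 reached a mean of 1 FPKM.

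Some members divided the labelled series in ways that follow neither genotype nor dose. These were taken as features where 1 series, or a WT series together with a tKO series, stood at least 1 log2 unit apart from all other libraries. Of the members 9 did so (1.88%), of the gene symbols 8 of 10354, and of all features 0.157%. The 8 symbols include the Y-linked genes Ddx3y, Eif2s3y and Uty.
The 162-base locus chr7:141853420-141853581, 8788 bases from Dock1, a regulator of the cytoskeleton, had 214, 150 and 145 FPKM in the tKO1 libraries and was listed at 0 in the other 9. Y-linked genes make the same division, and the part of sex in this locus was not tested. It was not called between the genotypes (adjusted p = 0.088).
The locus chrX:12779662-12780973, 20669 bases from the deubiquitinase gene Usp9x, had 204 to 236 FPKM in WT2 and 265 to 396 in tKO1, but 50.1 to 64.0 in WT1 and 38.7 to 62.0 in tKO2. At chr16:33138047-33138297, 10290 bases from Mir1947, WT2 had 22.0 to 36.4 FPKM, tKO1 had 39.5 to 65.8, and all libraries of WT1 and tKO2 were listed at 0. The locus chr4:107432035-107432933 near the lipoprotein receptor gene Lrp8 followed the same division, with 3.81 to 9.30 FPKM in WT2 and tKO1 and 0 to 0.550 in WT1 and tKO2. It cuts across the genotypes and across the series numbers.
Other divided loci were called between the genotypes. The locus chr14:88522764-88523615, 340938 bases from the protocadherin gene Pcdh20, had 131 to 168 FPKM in WT1 but 6.54 to 9.03 in WT2, against 195 to 382 in tKO. It was called higher in tKO (2.90 ± 0.85, adjusted p = 0.023), although WT1 lay nearer to tKO than to WT2, and the call was lost in 9 of 23 alternatives. At chrX:149344418-149344615, near Usp51, WT1 was listed at 0, WT2 had 4.08 to 6.43 FPKM and tKO 3.07 to 39.4 (2.21 ± 0.58, adjusted p = 0.014; lost in 5 of 23). The 168-base locus chrX:71812531-71812698 was likewise listed at 0 in WT1 alone, with 1.31 to 5.83 FPKM in WT2 and 1.42 to 7.93 in tKO (1.62 ± 0.49, adjusted p = 0.027). Without the 9 divided loci, 131 members were called.

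**Figure D2:**
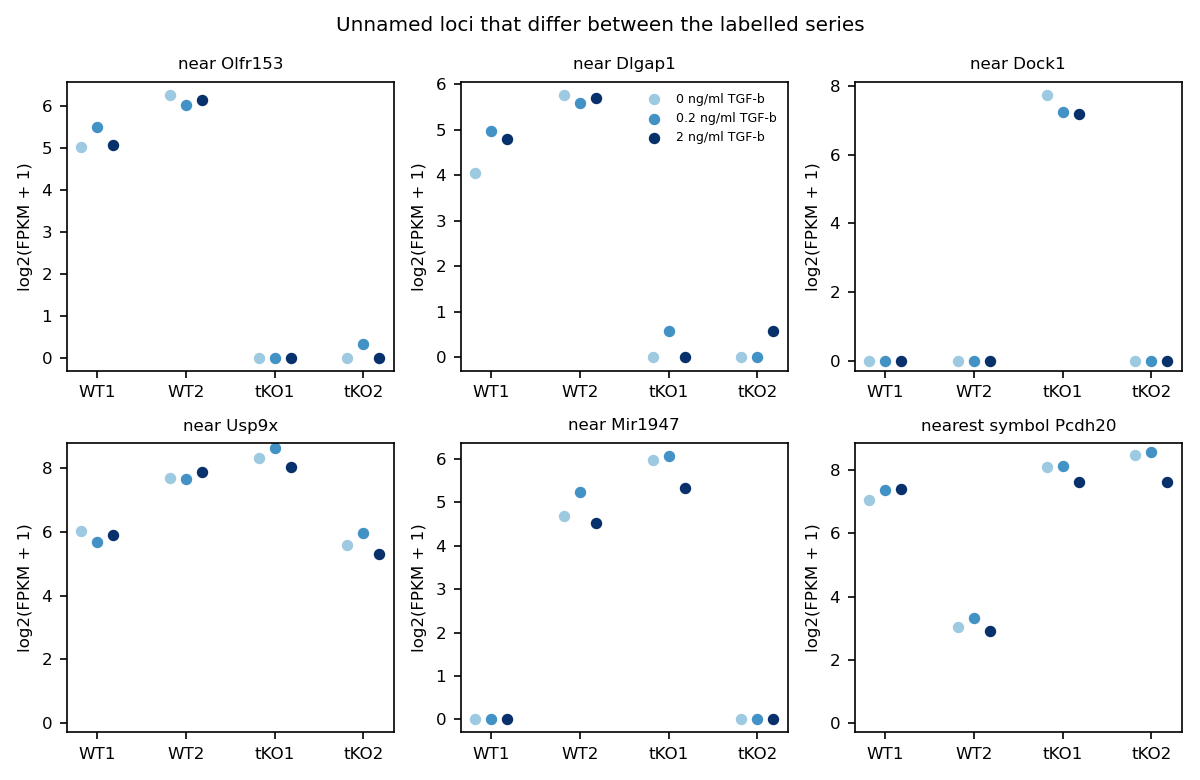
Levels of 6 loci as log2(FPKM + 1) on the y axis for the 4 labelled series on the x axis, with 1 point per library. The loci near Olfr153 and Dlgap1 separate WT from tKO, the locus near Dock1 is above 0 in tKO1 alone, and the loci near Usp9x and Mir1947 are low in WT1 and tKO2. The locus near Pcdh20 is low in WT2 alone.

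Members in the T cell receptor intervals were lower in tKO. Of the 56, 23 fell and 0 rose (limma; 31 and 1 at an unadjusted p under 0.05), against 13.0% and 13.7% of all features, and the median difference was -0.49. Their sum was 4273 to 5611 FPKM in WT and 3237 to 4158 in tKO, without overlap. With FPKM sums set equal or with quantile normalization 28 fell. With the labelled series as a random factor 21 fell. Without WT1 8 fell and without WT2 9.
The brightest was chr6:41483860-41498359, between Gm5409 and Ephb6, an interval with beta chain segments. In WT it had 1811 and 1633 FPKM at 0, 1915 and 2307 at 0.2 and 2221 and 2513 at 2 ng/ml. In tKO it had 1606 and 1621, 1662 and 1920 and 1275 and 1163. The genotypes were apart at 2 ng/ml (-0.96 ± 0.17, adjusted p = 0.0027) and close without TGF-b (-0.09 ± 0.17, adjusted p = 0.81), and the difference between the 2 comparisons did not pass the test (interaction -0.86 ± 0.24, adjusted p = 0.081).
Next came chr14:54805842-54844965, 10194 bases from Dad1, the gene beside the constant region of the alpha chain. It had 841 and 867, 1029 and 955 and 1177 and 870 FPKM in WT over the doses and 500 and 517, 755 and 705 and 705 and 666 in tKO. All 6 tKO libraries lay below all 6 WT libraries (-0.58 ± 0.10, adjusted p = 0.00061). The 896-base beta interval locus chr6:41138088-41138983, chosen after its values were seen, had 48.3 to 84.9 FPKM in WT and 31.4 to 55.6 in tKO (-0.70 ± 0.10, adjusted p = 0.00018).
The sums of the beta and alpha intervals are given by dose. The 21 beta members summed to 2940 ± 127 FPKM (SD, n = 2) in WT at 0 and 3955 ± 252 at 2 ng/ml, and to 2771 ± 124 and 2243 ± 135 in tKO. The 31 alpha and delta members summed to 1377 ± 32.1 and 1590 ± 339 in WT, and to 804 ± 18.2 and 1111 ± 38.3 in tKO. Without TGF-b, 1 of 21 beta and 5 of 31 alpha and delta members were lower in tKO, and at 2 ng/ml 12 and 4. Over all features 4.24% and 7.82% were lower at these doses, and 1 of 21 is near that background. Whether the beta and alpha counts differ was not tested, and 0 members of either interval passed the interaction term (limma; 10 of 21 beta members lower at an unadjusted p under 0.05). The 4 gamma interval members summed to only 0.305 to 23.3 FPKM in WT and 0.389 to 12.9 in tKO.
The genes of the CD3 proteins, which carry the receptor's signal, fell as well. The differences were -0.58 ± 0.10, adjusted p = 0.00061 for Cd3d, -0.51 ± 0.09, adjusted p = 0.00067 for Cd3e and -0.48 ± 0.09, adjusted p = 0.0012 for Cd3g. They are 3 of the 8 T cell markers measured, and Cd2, another of the 8, rose (0.41 ± 0.11, adjusted p = 0.011). Cd4 had 137 to 212 FPKM in WT and 90.8 to 138 in tKO. In bulk libraries fewer cells of a type and less RNA per cell cannot be told apart.

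In the immunoglobulin intervals 1 locus carried most of the heavy chain signal. It is chr12:114656766-114668813, between Tmem121 and Adam6b, an interval in which GENCODE vM21 places heavy chain segments. In WT it had 248 and 192 FPKM at 0, 474 and 416 at 0.2 and 486 and 539 at 2 ng/ml, and in tKO 89.3 and 61.2, 81.2 and 80.1 and 119 and 123. The genotypes did not overlap (-2.02 ± 0.11, adjusted p = 6.6e-08). Between 0 and 2 ng/ml the locus rose in WT (1.23 ± 0.19, adjusted p = 0.0013) and in tKO (0.70 ± 0.19, adjusted p = 0.026).
A neighbour, chr12:114644815-114654596, chosen after its values were seen, was also lower in tKO (-0.84 ± 0.25, adjusted p = 0.027). The 10239-base locus chr12:114493053-114503291 had 0 and 0.0905 FPKM at 0 and 10.9 and 5.14 at 2 ng/ml in WT (3.03 ± 0.43, adjusted p = 0.0007), while in tKO it was listed at 0 without TGF-b and had 4.65 and 1.88 at 2 ng/ml (adjusted p = 0.0083). Both libraries at 2 ng/ml were thus above both without TGF-b in either genotype.
The kappa light chain intervals were measured as well. Their 23 members summed to 654 and 350 FPKM in tKO at 0 and 77.9 and 110 at 2 ng/ml, while WT had 232 and 114, then 314 and 49.4. In tKO 7 of the 23 fell and 1 rose between those doses, against 9.92% and 7.11% of all features. At chr6:70672425-70676964, chosen after its values were seen, in the interval between Rprl1 and Rpia, tKO went from 323 and 183 to 42.6 and 58.1 FPKM (-2.27 ± 0.69, adjusted p = 0.039).
B cell markers were measured beside them. The 9 in the table summed to 16.3 to 66.4 FPKM in WT and 17.1 to 89.5 in tKO, and none was at 0 in all libraries. Cd79b, which encodes a signalling chain of the B cell receptor, had 33.4 and 19.4 FPKM in tKO at 0 and 16.5 and 12.1 at 2 ng/ml, while its partner Cd79a was at 1.29 or below. The part of B cells in the kappa values was not tested.

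**Figure D3:**
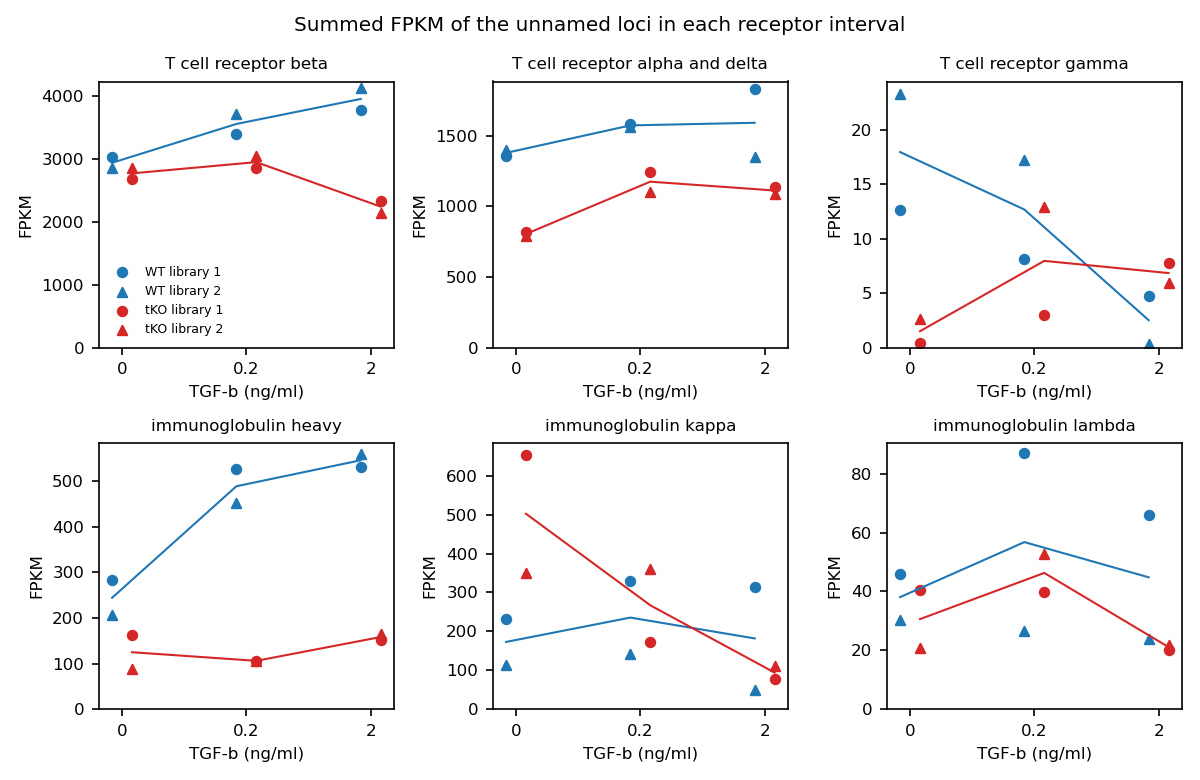
Summed FPKM of the members in each receptor interval (y axis) by TGF-b dose in ng/ml (x axis), with 1 point per library and lines through the means of 2, for WT and tKO. The beta sums are farthest apart at 2 ng/ml, and the kappa sum of tKO goes from 654 and 350 to 77.9 and 110 FPKM. The heavy chain means are 489 in WT and 106 in tKO at 0.2 ng/ml, and 546 and 158 at 2 ng/ml.

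One bright locus was listed at 0 in exactly the 4 WT libraries with TGF-b. It is chr1:24618371-24623031, 24094 bases from the collagen gene Col19a1. It had 777 and 935 FPKM in WT without TGF-b and 605 to 1830 in the tKO libraries. No fold is given against libraries listed at 0.
Between its flanking genes, Col19a1 and Lmbrd1, GENCODE vM21 lists 8 genes. Of these, 7 form a run of unprocessed pseudogenes of 4663 bases, 24062 bases from Col19a1, against a span of 4661 and a gap of 24094 for the locus. All 7 aligned to mitochondrial genes at 99.7% to 100% identity, among them Gm28439 to mt-Nd4, Gm28661 to mt-Co2 and Gm28437, printed above, to mt-Co3 over 783 bases. Such a run is a copy of mitochondrial DNA in the nuclear genome, and short reads may not separate it from the mitochondrial genes. The table's 1 entry without a symbol on the mitochondrial chromosome was at 0 in all libraries. In all, 8 members with a mean of 10 FPKM or more were listed at 0 in at least 1 library.

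Of the 48 members under 200 bases, 5 rose and 3 fell in tKO, shares of 10.4% and 6.25% that lie below those over all features given above. The 72-base locus chr13:49901318-49901389, 70530 bases from the isoleucyl tRNA synthetase gene Iars, had 917 and 755 FPKM in WT at 0, 362 and 605 at 0.2 and 322 and 385 at 2 ng/ml. In tKO it had 2584 and 2036, 1982 and 2129 and 1525 and 1652. The genotypes did not overlap (1.92 ± 0.13, adjusted p = 4.2e-07), and in WT the locus fell between 0 and 2 ng/ml (-1.24 ± 0.23, adjusted p = 0.0038). Iars itself rose in tKO (0.43 ± 0.13, adjusted p = 0.025).
The 43-base locus chr15:38167653-38167695 had 129 to 870 FPKM in WT and 96.8 to 471 in tKO, with overlap (-0.89 ± 0.26, adjusted p = 0.025; lost in 10 of 23). The 1723-base locus chr4:79649307-79651029, whose nearest symbol Tyrp1 lies 829104 bases away, rose with dose in WT, from 177 and 189 FPKM at 0 to 524 and 459 at 2 ng/ml (1.42 ± 0.28, adjusted p = 0.0054). It had 143 to 293 in tKO (-0.61 ± 0.16, adjusted p = 0.014, lost in 4 of 23). The Trav12n-3 locus had 0 to 6.28 FPKM over the 12 libraries and was not called between the genotypes (-0.73 ± 0.32, adjusted p = 0.11).

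Several other large rises in tKO were at loci over 50 kb from a gene symbol. Closer to its gene, the locus 4562 bases from Idi2, described below, rose too (limma, 1.94 ± 0.21, adjusted p = 2.1e-05). It averaged 1 FPKM or more in tKO alone. The locus chr5:53808130-53812847, 123779 bases from Rbpj, which encodes the transcription factor of Notch signalling, had 0.470 to 2.30 FPKM in WT and 7.04 to 17.3 in tKO, without overlap (2.28 ± 0.23, adjusted p = 1.3e-05). Rbpj rose as well, with 20.5 to 32.6 FPKM in WT and 69.3 to 84.3 in tKO (1.55 ± 0.10, adjusted p = 1.7e-07). The locus chr12:55393339-55404538, 84181 bases from Gm7550 and with Egln3, one of the targeted genes, as its flank on the other side, had 0 to 2.74 and 2.97 to 23.9 FPKM, again without overlap (2.41 ± 0.32, adjusted p = 0.00013). The locus chr13:5791457-5793631, 61123 bases from 1700016G22Rik, had 0 to 1.08 FPKM in WT, and in tKO 7.52 and 11.8 at 0, 3.65 and 5.02 at 0.2 and 0.541 and 1.69 at 2 ng/ml (1.91 ± 0.24, adjusted p = 7e-05). Its tKO libraries thus stood apart at the lower doses and overlapped WT at 2 ng/ml. This locus and the one nearest to Gm7550 averaged 1 FPKM or more in tKO alone, so their differences were in part fixed by the choice.
Further loci were chosen after their values were seen. Those at Egr2 and near Il4ra averaged 1 FPKM or more in tKO alone, so their differences were in part fixed by the choice. A 45803-base locus overlapping Egr2, an early response transcription factor gene, had 0 to 0.810 FPKM in WT and 0.749 to 6.68 in tKO (1.70 ± 0.28, adjusted p = 0.00068). Egr2 rose too (1.78 ± 0.29, adjusted p = 0.0005). The locus chr7:132735175-132737517, 8759 bases from the interleukin 4 receptor gene Il4ra, had 0 to 0.505 and 1.22 to 3.55 FPKM without overlap (1.41 ± 0.21, adjusted p = 0.00035), while Il4ra was not called (0.32 ± 0.18, adjusted p = 0.24). Neighbouring loci at chr3:60582036-60589417 and chr3:60592144-60600388 both rose (1.75 ± 0.37, adjusted p = 0.0036, and 1.67 ± 0.24, adjusted p = 0.00024). Their nearest gene, the splicing regulator Mbnl1, lies 142708 bases from the first and was not called (-0.02 ± 0.17, adjusted p = 0.95).

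Among the members lower in tKO outside the receptor intervals were several that were highest in WT at 2 ng/ml. The locus chr11:106832922-106834447, 15495 bases from the nuclear import gene Kpna2, had 9.18 and 9.56 FPKM in WT at 0, 12.7 and 16.3 at 0.2 and 23.8 and 26.7 at 2 ng/ml, and 2.73 to 5.26 in tKO, without overlap (-1.88 ± 0.16, adjusted p = 2.1e-06). Near Galnt9, a sugar transferase gene 7465 bases away, chr5:110943897-110965898 had 2.53 and 3.87, 6.26 and 8.51 and 10.3 and 16.5 FPKM in WT over the doses and 0.140 to 2.22 in tKO (-2.04 ± 0.23, adjusted p = 3.1e-05). Galnt9 was not called (-0.17 ± 0.19, adjusted p = 0.54). At 1893 bases from Prkab1, which encodes a subunit of the energy sensor AMPK, chr5:116476412-116479270 had 1.54 to 12.4 FPKM in WT and 0.220 to 2.34 in tKO (-1.49 ± 0.26, adjusted p = 0.00082).
The 630-base locus chr2:78962882-78963511, nearest to Cerkl, had 5.00 to 9.99 FPKM in WT at 0 and 0.2 ng/ml, 1.09 and 0 at 2 ng/ml, and 0 to 1.60 in tKO (-1.59 ± 0.24, adjusted p = 0.00036). It was thus low in every tKO library and in WT at 2 ng/ml. The loci near Cerkl and Prkab1 averaged 1 FPKM or more in WT alone, so their differences were in part fixed by the choice.
Beside Rel, which encodes an NF-kB subunit, neighbouring loci had differences of opposite sign when averaged over doses. At chr11:23681787-23703389 tKO was higher (1.09 ± 0.28, adjusted p = 0.011), and at chr11:23704493-23719000 lower (-1.63 ± 0.36, adjusted p = 0.0053), with 10.1 and 7.26 FPKM in WT and 0 and 0 in tKO without TGF-b. The first locus averaged 1 FPKM or more in tKO alone. Their signs were the same without TGF-b (-0.105 and -3.26) and at 2 ng/ml (2.03 and 0.35). Only at 0.2 ng/ml were they opposite (1.36 and -1.98), and neither locus was called there. Of the 28 pairs of neighbouring members within 5 kb, 8 had both called averaged over doses, and in 7 of these both moved the same way. Among these 7 are pairs in the heavy chain, alpha and beta intervals given above. Of all 479 members 61 were called higher and 73 lower, and of all features 13.7% and 13.0%. Whether neighbours were called together more often than other members was not tested.

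Called members were compared with the nearest gene in the same contrast. Of the 134 members called between the genotypes, 84 had a nearest gene with a mean of 1 FPKM or more. For 43 of these members the gene was called in the member's direction, for 6 in the other and for 35 not. Some members share a nearest gene, so these are counts of members and not of different genes. The receptor segment A430107P09Rik was nearest to 5 of the called members. Of the 226 uncalled members with a tested nearest gene, 65 (28.8%) had a gene that was called, in 46 with the member's sign. Over all features 13.7% were called higher and 13.0% lower. Where the locus overlapped the gene, 14 of 17 were called the same way and 3 were not called. Up to 5 kb without overlap, 8 were called the same way, 1 the other way and 10 not, of 19. Between 5 and 50 kb these were 10, 4 and 14, of 28, and over 50 kb 11, 1 and 8, of 20. The values carry no strand, so a locus and the gene it overlaps can share reads and are uncertain.

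**Figure D4:**
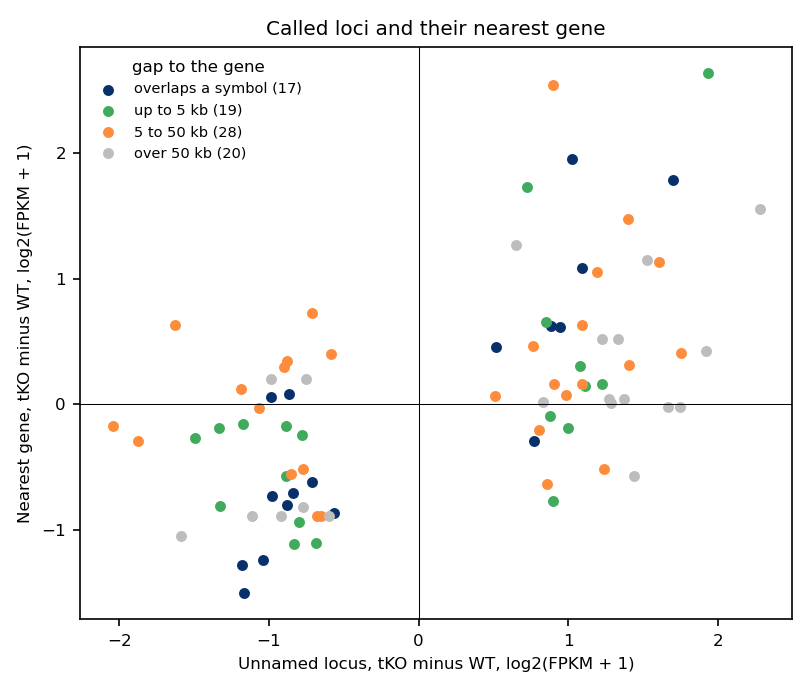
Each of 84 points is a member called between the genotypes, with its tKO minus WT difference on the x axis and that of its nearest gene on the y axis, both on the log2(FPKM + 1) scale, coloured by the gap between them. Of the 17 overlapping loci, 14 have a gene called in the same direction.

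At single doses, tKO was higher at 25 members and lower at 23 without TGF-b (5.22% and 4.24% of all features), higher at 37 and lower at 23 at 0.2 ng/ml (8.70% and 5.98%), and higher at 13 and lower at 49 at 2 ng/ml (7.24% and 7.82%). With FPKM sums set equal the splits were 19 and 26, 26 and 47, and 23 and 35, as the log2 FPKM sums of tKO and WT differed by 0.19, 0.32 and -0.25. With quantile normalization the split at 0.2 ng/ml was 33 and 34. So the balance of directions rests on the scaling. Of the 49 lower at 2 ng/ml, 16 lay in T cell receptor intervals.
Without TGF-b the largest rises were at loci nearly silent in WT. The locus chr16:51543530-51569627, whose nearest symbol is the ubiquitin ligase gene Cblb at 462027 bases, had 17.3 and 16.4 FPKM in tKO at 0 and 0 to 0.315 in the other 10 libraries. It reached a mean of 1 FPKM in that group only. Another member with the same nearest symbol, chr16:51624081-51703186, lies closer, at 328468 bases, and, without TGF-b, was at 7.18 and 12.2 FPKM in tKO against 2.11 and 3.17 in WT (1.53 ± 0.42, adjusted p = 0.037). The farther locus is meant below. At 11676 bases from Irf4, a transcription factor gene of activated lymphocytes, chr13:30870526-30874566 had 3.28 and 12.2 FPKM in tKO at 0 and was listed at 0 in WT at 0 (adjusted p = 0.0056; lost in 4 of 23). Irf4 rose as well (1.48 ± 0.20, adjusted p = 0.00045). The locus near Irf4 averaged 1 FPKM or more in tKO alone, so its difference was in part fixed by the choice.
On chromosome 3 a pair of loci on either side of Il21, a T cell cytokine gene, had the same course. The locus chr3:37068578-37074385, 43701 bases from the interleukin 2 gene Il2, had 4.59 and 7.69 FPKM in tKO at 0 and 0 to 1.35 in the other libraries. The locus chr3:37197126-37204871, 1823 bases from Bbs12, had 7.18 and 8.13 and 0 to 0.558 FPKM. Both, too, reached a mean of 1 FPKM only in tKO without TGF-b. Il2 itself, without TGF-b, was at 10.7 and 33.6 FPKM in the tKO libraries against 8.72 and 4.87 in WT, and the first locus was chosen after its values were seen.
At 2 ng/ml the 84-base locus chr10:116409778-116409861 was called lower in tKO on values of 18.8 and 0 against 28.0 and 49.7 FPKM (adjusted p = 0.047), and 16 of 24 alternatives lost it.

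Between 0 and 2 ng/ml TGF-b in WT 40 members rose and 10 fell, against 7.52% and 7.41% of all features. The rises, 8.35% of the members, were near the background, and the falls, 2.09%, were below it. Of the rises, 10 lay up to 5 kb from a tested gene without overlapping it, and for 8 of them the gene rose too. The comparison rests on 2 libraries a dose: without WT1 9 members were called and without WT2 4.
Among the rises were loci beside Smad7 and Maf. At 230 bases from Smad7, the inhibitor that TGF-b signalling induces against itself, chr18:75517085-75526771 had 0.140 and 0.107 FPKM at 0 and 2.36 and 5.86 at 2 ng/ml, the only group in which it reached a mean of 1 FPKM, and Smad7 rose (2.27 ± 0.28, adjusted p = 0.00026). At 501 bases from the transcription factor gene Maf, the 139-base locus chr8:118231597-118231735 had 0 and 1.27 FPKM, then 17.1 and 2.99 (2.49 ± 0.60, adjusted p = 0.016; lost in 5 of 24). Its libraries at 2 ng/ml lay far apart, and Maf rose (3.73 ± 0.33, adjusted p = 2.7e-05).
The locus chr4:149218787-149230388, 40003 bases from the ubiquitin ligase adaptor gene Spsb1, had 0 and 0.552 FPKM, then 6.54 and 4.04 (2.31 ± 0.43, adjusted p = 0.0038, lost in 4 of 23), beside a rise of Spsb1 (3.79 ± 0.34, adjusted p = 3.2e-05). The locus chr6:67065671-67116662, 35024 bases from the stress response gene Gadd45a, was listed at 0 without TGF-b and had 2.78 and 5.65 FPKM at 2 ng/ml (adjusted p = 0.0031). In tKO it had 0 to 0.438 FPKM. The loci near Spsb1 and Gadd45a averaged 1 FPKM or more in WT alone, and within WT only at 0.2 and 2 ng/ml. Their rises and genotype differences were thus in part fixed by the choice.
A locus overlapping Cd2, an adhesion receptor gene, went against its gene. At chr3:101068670-101125134 WT had 0.803 and 0.188 FPKM at 0, 3.29 and 2.13 at 0.2 and 9.04 and 13.4 at 2 ng/ml (3.04 ± 0.35, adjusted p = 0.00016), while Cd2 fell (-1.03 ± 0.18, adjusted p = 0.0028). A 26840-base locus overlapping Ctla4, an inhibitory receptor gene, had 1.71 and 2.17 FPKM, then 7.29 and 8.13 in WT (1.57 ± 0.30, adjusted p = 0.0042) and 0.136 and 0.554, then 3.24 and 3.81 in tKO (1.76 ± 0.30, adjusted p = 0.0024). It was chosen after its values were seen. The 469-base locus chr11:98322202-98322670 near Mien1 had 2.11 and 0.754 FPKM, then 19.4 and 10.5 in WT (2.71 ± 0.56, adjusted p = 0.0071; lost in 5 of 24). At chr13:37672909-37681184, 162003 bases from Ly86, the values were 0.677 and 0.285, then 3.23 and 8.24 FPKM (2.09 ± 0.48, adjusted p = 0.011; lost in 5 of 24).

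Apart from the locus near Col19a1, the largest fall in WT was at chr17:52280676-52303282, between the chromatin organizer gene Satb1 and Kcnh8, with Gm20098 as its nearest symbol. It had 13.2 and 18.6 FPKM at 0 and 1.84 and 0 at 2 ng/ml in WT (-3.31 ± 0.48, adjusted p = 0.00076), and 54.5 and 62.3, then 3.26 and 1.46 in tKO (-4.20 ± 0.48, adjusted p = 0.00019). The locus thus started higher in tKO and was low in both genotypes at 2 ng/ml. The 130-base locus chr6:91378798-91378927 fell from 23.0 and 29.7 to 5.68 and 9.27 FPKM in WT (-1.71 ± 0.35, adjusted p = 0.0062) and had 30.4 to 45.4 in tKO at all doses. At chr2:80678654-80678930, WT went from 19.9 and 15.1 to 6.45 and 6.29 FPKM (-1.32 ± 0.23, adjusted p = 0.0023), and tKO had 20.5 to 37.6. The locus near Cerkl fell too (-2.27 ± 0.42, adjusted p = 0.0037). The next, chr16:32550334-32553805, averaged 1 FPKM or more in WT alone, so its fall was in part fixed by the choice. Falls at chr16:32550334-32553805 (-1.99 ± 0.51, adjusted p = 0.021), chr13:20840212-20840265 (-1.57 ± 0.44, adjusted p = 0.03) and chr11:23681787-23703389 (listed at 0 at 2 ng/ml, adjusted p = 0.047) were lost in 7 of 23, 9 of 24 and 11 of 23 alternatives.

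At 0.2 ng/ml few members moved. In WT 5 rose and 1 fell (0.895% and 0.572% of all features), and the fall was the locus near Col19a1. The 131-base locus chr12:98160497-98160627 had 1.13 and 0 FPKM at 0 and 10.2 and 11.7 at 0.2 ng/ml (3.03 ± 0.47, adjusted p = 0.0067; lost in 6 of 24). In a heavy chain interval chr12:114522448-114553001 rose (2.26 ± 0.45, adjusted p = 0.027; lost in 12 of 24), as did chr7:71146774-71169863 (1.69 ± 0.35, adjusted p = 0.035; lost in 10 of 23). The locus chr7:71146774-71169863 averaged 1 FPKM or more in WT alone, so its rise was in part fixed by the choice. The remaining rises were the heavy chain locus described above (1.02 ± 0.19, adjusted p = 0.021) and chr4:79648235-79649290 beside the bright locus nearest to Tyrp1 (0.98 ± 0.20, adjusted p = 0.029). In tKO 3 rose and 5 fell (1.51% and 0.738% of all features). The rises were over Cd2 (2.29 ± 0.35, adjusted p = 0.0043, lost in 4 of 24), near Idi2 (lost in 4 of 24) and at chr16:76186716-76249739 (1.93 ± 0.42, adjusted p = 0.032, lost in 15 of 23). The falls included the loci nearest to Cblb, Bbs12 and Il2, which reached a mean of 1 FPKM only in tKO without TGF-b, and the locus nearest to Gm20098 (-2.56 ± 0.48, adjusted p = 0.016; lost in 8 of 24).

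Between 0 and 2 ng/ml TGF-b in tKO 22 members rose and 30 fell, against 7.11% and 9.92% of all features. With FPKM sums set equal the split was 59 and 17, the log2 FPKM sums at 2 and 0 ng/ml differing by -0.42.
The largest rise was at chr13:8939453-8947546, 4562 bases from Idi2, an isomerase gene of isoprenoid synthesis. In tKO it had 0.366 and 0.842 FPKM at 0, 6.52 and 8.66 at 0.2 and 13.0 and 13.5 at 2 ng/ml (3.17 ± 0.36, adjusted p = 0.0002), and 0.117 to 0.982 in WT. Idi2 had the same order, with 0.528 and 2.78, 9.60 and 16.8 and 26.9 and 38.2 FPKM in tKO and 0.172 to 1.21 in WT. Rises named in WT were also called in tKO near Maf, which was listed at 0 without TGF-b and had 7.28 and 4.34 FPKM at 2 ng/ml (adjusted p = 0.0095), and over Cd2 (2.62 ± 0.35, adjusted p = 0.00053). The largest falls were at the loci nearest to Gm20098, given above, and Cblb, which was listed at 0 at 2 ng/ml. The 92-base locus chr3:53496287-53496378 had 7.07 and 14.6 FPKM at 0 and was listed at 0 at 2 ng/ml (adjusted p = 0.024; lost in 6 of 24).

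**Figure D5:**
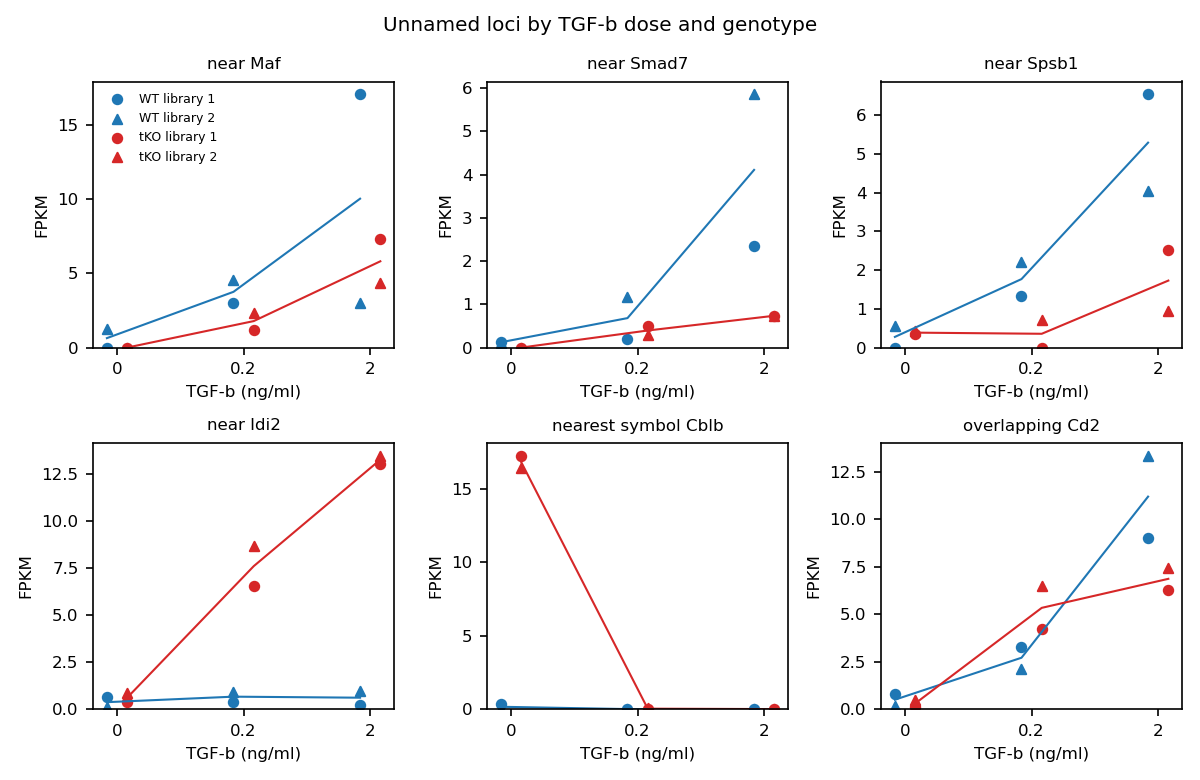
FPKM (y axis) of 6 loci by TGF-b dose in ng/ml (x axis), with 1 point per library and lines through the means of 2, for WT and tKO. The loci near Smad7 and Spsb1 are highest in WT at 2 ng/ml, the locus near Idi2 reaches 13.0 and 13.5 FPKM in tKO, and the locus nearest to Cblb is highest in tKO without TGF-b.

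The effect of 2 ng/ml TGF-b differed between the genotypes at 11 members by the limma interaction term, 4 with a more positive change in tKO and 7 with a more negative one, against 1.33% and 1.12% of all features. The members' shares, 0.835% and 1.46%, are near the background. With FPKM sums set equal the counts were 6 and 5. The comparison uses the same libraries at 0 and 2 ng/ml as the comparisons above, so it is no independent evidence for them.
The loci near Col19a1, Idi2, Cblb and Bbs12, described above, are among the 11. At chr12:55993266-56089144, overlapping the chromatin remodelling gene Baz1a, WT went from 66.3 and 56.0 FPKM at 0 to 23.4 and 25.4 at 2 ng/ml, and tKO from 42.9 and 23.2 to 54.8 and 46.8 (interaction 1.95 ± 0.41, adjusted p = 0.031). At chr5:41734151-41734242 the genotypes had changes of opposite sign, with 11.5 and 7.44, then 35.3 and 17.3 FPKM in WT and 24.7 and 11.0, then 3.54 and 6.34 in tKO (interaction -2.93 ± 0.58, adjusted p = 0.022; lost in 10 of 24 alternatives).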

How the data were processed

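The authors deposited 1 table of FPKM per entry and library, made with Trimmomatic, TopHat, Cufflinks and Cuffdiff on mm9, per the submitters' processing notes. Per the labels' protocols, RNA was amplified with the SMARTer Ultra low input kit. Read depth is not given in the sources used here. Start positions count from 0 (in 173 of 174 short microRNA entries the span equals end minus start) and are printed from 1. Of 18 exact duplicates dropped, 1 had no symbol. Rows were summed by symbol or position, and features under a mean of 1 FPKM were left out. The test was limma 3.58.1 in R 4.3.3 (trend, 6 group means, 6 residual degrees of freedom) on log2(FPKM + 1), adjusted by Benjamini-Hochberg over 10833 features and tested on simulated data. Alignments used blastn 2.17.0. Loci named by rule are the 10 brightest, the 8 largest called rises and falls between the genotypes and in WT at 2 ng/ml, 3 of each in other comparisons, and those most alike by correlation. The members and lists were chosen with earlier results of these data known. Some results are not reported here.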

Additional observations from a re-analysis of the deposited data

Results flagged for a closer look

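The effect of 2 ng/ml TGF-b differed between the genotypes at 11 members by the limma interaction term (adjusted p under 0.05), which is why they are listed, and 9 of them are given here. Of the members 0.835% had a more positive change in tKO and 1.46% a more negative one. Over all features these were 1.33% and 1.12%, so the members' shares are near the background. Each value is the change from 0 to 2 ng/ml in tKO minus that in WT, on the log2(FPKM + 1) scale. Where a group was listed at 0 in both libraries the value depends on the pseudocount and is no fold, and such groups are named.

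At chr1:24618371-24623031 (nearest to Col19a1) the difference was 9.92 (adjusted p = 1.1e-06), with 777 and 935, then 0 in both FPKM in WT and 605 and 1153, then 878 and 1018 in tKO. The value for chr16:51543530-51569627 (nearest to Cblb) was -3.96 (adjusted p = 0.0017), from 0.315 and 0, then 0 in both FPKM in WT and 17.3 and 16.4, then 0 in both in tKO. For chr3:37197126-37204871 (nearest to Bbs12), levels of 0.203 and 0.223, then 0 in both FPKM in WT and 7.18 and 8.13, then 0 in both in tKO gave -2.83 (adjusted p = 0.0092). At chr13:8939453-8947546 (nearest to Idi2) the difference was 2.95 (adjusted p = 0.011), with 0.617 and 0.117, then 0.226 and 0.982 FPKM in WT and 0.366 and 0.842, then 13.0 and 13.5 in tKO. The value for chr5:41734151-41734242 (nearest to Rab28) was -2.93 (adjusted p = 0.022), from 11.5 and 7.44, then 35.3 and 17.3 FPKM in WT and 24.7 and 11.0, then 3.54 and 6.34 in tKO. For chr12:55993266-56089144 (overlapping Baz1a), levels of 66.3 and 56.0, then 23.4 and 25.4 FPKM in WT and 42.9 and 23.2, then 54.8 and 46.8 in tKO gave 1.95 (adjusted p = 0.031). At chr4:79648235-79649290 (nearest to Tyrp1) the difference was -1.30 (adjusted p = 0.034), with 39.5 and 45.6, then 121 and 121 FPKM in WT and 44.3 and 64.7, then 54.1 and 69.2 in tKO. The value for chr19:32540942-32541069 (nearest to Minpp1) was -1.43 (adjusted p = 0.037), from 21.5 and 24.6, then 44.1 and 32.4 FPKM in WT and 25.0 and 33.4, then 14.7 and 19.7 in tKO. For chr16:32550334-32553805 (nearest to Zdhhc19), levels of 4.34 and 6.35, then 1.49 and 0 FPKM in WT and 0 in both, then 0.479 and 2.76 in tKO gave 3.23 (adjusted p = 0.039).

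Of the calls recomputed under the alternatives, that of the Zdhhc19 locus was lost in 12 of 23, of the Rab28 locus in 10 of 24, of the Idi2 locus in 9 of 24, of the Cblb locus in 3 of 24 and of the Col19a1 locus in 0 of 24. No alternative re-estimated the values listed at 0 in the Col19a1 locus, which can also be failed estimates, so its count does not test them. Reads of that locus may not be separable from those of mitochondrial genes, as stated above. The Cblb and Bbs12 loci reached a mean of 1 FPKM only in tKO without TGF-b. Their values thus follow in part from how the members were chosen. The Idi2 locus averaged 1 FPKM or more in tKO alone and the Zdhhc19 locus in WT alone, so the same holds for them.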

How the results depend on the processing

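Alternatives were run 1 choice at a time, and none turned the direction of a named locus: over all named loci and alternatives, 1637 values stayed on the same side of the threshold, 246 lost the call and 3 gained it. Counts of members called moved more. With no filter on other features they were 58 between the genotypes averaged over doses, 11, 15 and 16 at 0, 0.2 and 2 ng/ml, 15 and 1 for 2 and 0.2 ng/ml against 0 in WT, 13 and 2 in tKO, and 3 for the interaction. The filter at a mean of 2 FPKM left 89 called between the genotypes and 4 at 0.2 ng/ml in tKO, with fewer loci tested. A pseudocount of 0.1 gave 4 at 0.2 ng/ml in tKO. Fits of only the groups compared gave 26 between the genotypes at 0.2 ng/ml, 1 at 0.2 ng/ml in tKO and 19 for the interaction.

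Leaving out 1 library or labelled series gave 57 to 145 between the genotypes averaged over doses, 13 to 56, 15 to 91 and 15 to 81 at the single doses, 4 to 72 and 1 to 8 in WT, 11 to 67 and 1 to 25 in tKO, and 1 to 29 for the interaction. A group left with 1 library is assumed to vary like the others. With the replicate block (the series number as a block) 14 members were called at 0.2 ng/ml in tKO, and the other counts stayed within 1.5 times. Deviations from group means correlated by 0.0958 to 0.405 within a genotype (6 pairs of groups) and -0.116 to 0.224 across genotypes (9 pairs). These ranges overlap and rest on 2 libraries a group, so they cannot show whether the numbers pair WT with tKO. The deviations within a genotype were positively correlated in all 6. With the labelled series as a random factor 109 members were called between the genotypes averaged over doses, 48, 59 and 62 at the single doses, 66 and 7 in WT, 66 and 11 in tKO, and 15 for the interaction. The cause of these shifts was not tested. The comparison of DMOG with vehicle was not run, since that table has no entry without a symbol. Depth is unknown, so its effect on faint loci could not be given.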
